A study of Mus musculus with 12 samples.

Results

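The clustered replication-dependent histone genes encode the histones that package DNA as it is copied. They were taken here as every entry of the deposited count table named Hist1h, Hist2h, Hist3h or Hist4h plus a letter or number, leaving out names that end in -ps, which mark pseudogenes. The rule gave 69 genes of 54532 entries, of which 6 encode the linker histone H1, 20 encode H2A, 18 encode H2B, 12 encode H3 and 13 encode H4. RNA was measured in 12 libraries of freshly isolated, untreated mouse CD4 T cells, 3 from each of 4 sorted subsets. The mice were wild-type C57BL/6 animals carrying a Foxp3-GFP reporter with a polyclonal T cell repertoire, so every subset shares the reporter, and spleen and lymph node cells were mixed. Naive cells were sorted as CD44low. Teff cells (effector T cells) were CD44high, FOXP3-negative, CD73low and FR4low, and Anergic cells, which are tolerant of self antigen, were CD44high, FOXP3-negative, CD73high, FR4high and NRP1+. Treg cells (regulatory T cells) were FOXP3+ and CD25+. Whether the 3 libraries of a subset came from different mice is not stated in the labels. The p-values therefore describe only the spread between libraries, which may be technical.

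Libraries held 6909035 to 9527897 counts, and 13393 genes passed the filter on low counts and were tested. Levels are TMM-scaled CPM, counts scaled to 1000000 per library, given as mean ± SD with n = 3 libraries. The sorted markers were checked first. Foxp3 stood at 542 ± 16.2 CPM in Treg, 18.2 ± 2.81 in Anergic, 1.35 ± 0.22 in Naive and 0.73 ± 0.33 in Teff, so the Anergic libraries, sorted as FOXP3-negative, held more Foxp3 RNA than Teff did (log2 fold change 4.60, adjusted p = 2.84e-14, edgeR quasi-likelihood test). Cd44 was 35.2 ± 4.77 CPM in Naive and 295 ± 8.6 in Teff. All 6 T cell markers (Cd3e, Cd3d, Cd3g, Cd4, Trac and Lck) were present in each subset. Markers of other cells also moved between subsets. The 7 B cell markers summed to a subset mean of 177 CPM in Teff and 449 in Treg, nearly all of it Ighm. The 4 NK markers summed to 5.08 CPM in Naive and 93.9 in Teff, with Klrb1c at 38.8 and Klrk1 at 41.0 CPM in Teff and Ncr1 at 0.04 CPM or below. The 5 plasma cell markers summed to 38.5 CPM in Naive, 62.8 in Anergic, 76.6 in Treg and 64.1 in Teff, and the 3 that were tested (Jchain, Xbp1 and Prdm1, the last 2 also known from T cells) were higher than Naive in each, Jchain by a log2 fold change of 2.66 in Teff. The 6 myeloid markers summed to 4.05 CPM in Naive and 10.1 in Teff. Of the 3 that were tested, Lyz2 and Csf1r were higher in Teff, by 2.93 and 2.28. Itgam was lower, with a log2 fold change of -1.65. The 4 thymocyte markers summed to 10.7 CPM in Naive and 0.284 in Anergic, and the 5 erythroid markers stayed under 0.38 CPM in every subset mean. The part of these cells in the histone results was not tested.

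A nucleosome wraps DNA around a core of H2A, H2B, H3 and H4, and H1 binds the DNA that links nucleosomes. Cells that copy their genome must supply new histones in S phase, and the clustered genes do this: they mostly lack introns, are driven as a group through the NPAT protein in the histone locus body, and yield mRNAs that end in a stem-loop in place of a poly(A) tail. SLBP binds that stem-loop and, with the U7 small nuclear ribonucleoprotein, guides the cut that forms the end. Some clustered genes can also give longer, polyadenylated mRNAs. The libraries were made from total RNA, which can capture both kinds. Resting naive T cells divide little, whereas cells that have met antigen can divide.

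By the GENCODE annotation of GRCm38, 55 of the 56 Hist1 genes lay on chromosome 13 between positions 21715763 and 23934851, and Hist1h2al lay apart from them at chr13:51202727-51203065. The 10 Hist2 genes lay at chr3:96219865-96270132, the 2 Hist3 genes at chr11:58948920-58956830, and Hist4h4 at chr6:136801553-136804415. A single exon was annotated for 64 of the 69, and 67 were typed as protein-coding. Hist1h2aj and Hist1h2al were typed as pseudogenes, although their names do not say so.

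The stem-loop was looked for in the annotated transcripts after the stop codon on the coding strand, as the conserved histone stem-loop pattern with free bases at the variable places of stem and loop, and 45 genes held it. Within the last 100 bases of the transcript, 22 of the 69 (31.9%) held it, against 6 of 55272 other genes (0.0109%). The most common form, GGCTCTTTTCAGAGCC, was found in 25 genes of the H1, H2A, H2B and H3 classes and in none of the H4 genes. Of the 12 H4 genes with a stem-loop, 7 carried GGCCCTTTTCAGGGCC. Since the stem-loop is the shared mark of these mRNAs, examples are shown for genes described in the results, as DNA letters 5′ to 3′ from the GENCODE transcripts, with the stem-loop in capitals:
Hist1h1c: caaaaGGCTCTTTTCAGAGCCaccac
Hist1h2ab: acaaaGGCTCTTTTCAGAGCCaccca
Hist1h2bb: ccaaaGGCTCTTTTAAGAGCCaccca
Hist1h3g: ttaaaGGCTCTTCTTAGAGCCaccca
Hist1h4f: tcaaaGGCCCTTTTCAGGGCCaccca
Hist3h2a: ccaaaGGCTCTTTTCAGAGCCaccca
Hist1h3g was the one gene with its form of the loop. Hist1h1c, Hist1h2ab and Hist3h2a carried identical capitals.

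Promoter windows of 300 bases (250 before to 50 after the start site) were matched in RefSeq (GRCm38.p6) for 61 of the 69 genes. The letters CCAAT, on either strand, were in 85.2% of them and in 37.9% of all 27025 promoters. They were in each of the 6 H1, 17 H2A, 16 H2B and 10 H3 windows, but in 3 of the 12 H4 windows. TATAA was in 78.7% of the histone windows against 25.5% of all promoters. The octamer ATTTGCAT was in 7 of 17 H2A and 6 of 16 H2B windows and in none of the H1, H3 or H4 windows, against 1.75% of all promoters. AAACACA, known as the H1 box, was in 5 of 6 H1 windows, 2 H2A and 2 H2B windows, against 7.14% of all promoters. These matches are descriptions of letters and not sites of binding. The 250 bases upstream of 4 genes are shown because their levels ranged from a steep rise to a fall between subsets, with matches to these 4 motifs on either strand in capitals:
Hist1h1b, chr13:21780626-21780875, minus strand: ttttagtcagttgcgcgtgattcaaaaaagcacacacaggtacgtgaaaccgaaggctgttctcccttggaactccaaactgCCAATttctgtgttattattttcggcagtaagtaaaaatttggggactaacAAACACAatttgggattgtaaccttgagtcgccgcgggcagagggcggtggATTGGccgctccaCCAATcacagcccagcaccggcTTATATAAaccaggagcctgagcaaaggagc
Hist1h1c, chr13:23738557-23738806, plus strand: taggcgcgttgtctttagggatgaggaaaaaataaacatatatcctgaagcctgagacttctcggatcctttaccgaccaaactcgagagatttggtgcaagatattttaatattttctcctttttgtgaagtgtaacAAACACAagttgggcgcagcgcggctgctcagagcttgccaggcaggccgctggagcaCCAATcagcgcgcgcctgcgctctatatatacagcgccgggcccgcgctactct
Hist1h2ab, chr13:23750838-23751087, plus strand: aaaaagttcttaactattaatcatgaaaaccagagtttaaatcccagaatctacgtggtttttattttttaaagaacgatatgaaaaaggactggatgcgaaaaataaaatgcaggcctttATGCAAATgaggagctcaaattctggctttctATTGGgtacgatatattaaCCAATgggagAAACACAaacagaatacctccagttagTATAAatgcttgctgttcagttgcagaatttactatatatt
Hist3h2a, chr11:58954435-58954684, plus strand: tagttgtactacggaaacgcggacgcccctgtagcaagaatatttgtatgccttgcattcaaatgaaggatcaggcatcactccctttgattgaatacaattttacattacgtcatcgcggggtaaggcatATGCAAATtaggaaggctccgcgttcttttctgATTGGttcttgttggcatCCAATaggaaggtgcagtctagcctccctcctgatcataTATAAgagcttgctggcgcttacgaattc
The windows of Hist1h1b and Hist1h1c both held CCAAT and the H1 box, and those of Hist1h2ab and Hist3h2a both held CCAAT and the octamer as well as TATAA.

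Of the 69 genes, 63 had at least 1 count, 54 passed the filter and were tested, 9 had some counts but were not tested, and 6 had 0 counts in all 12 libraries (Hist1h2ba, Hist1h2aa, Hist1h2aj, Hist1h2br, Hist1h2ap and Hist2h3c1). All 13 H4 genes were tested, with 5 H1, 13 H2A, 13 H2B and 10 H3 genes. Histone genes took 0.0634% ± 0.00784 of the counts in Naive, 0.0761% ± 0.00407 in Anergic, 0.0885% ± 0.0036 in Treg and 0.108% ± 0.00461 in Teff. Summed over all 69 genes, the Naive libraries held 549, 677 and 705 CPM, the Anergic libraries 734, 809 and 856, the Treg libraries 814, 879 and 850.3, and the Teff libraries 1071, 1080.5 and 1016. Naive libraries were thus below every other library and Teff libraries above every other, while Anergic and Treg libraries overlapped. By share of counts, without TMM scaling, Anergic libraries (0.0729% to 0.0807%) lay below Treg libraries (0.0847% to 0.0918%). The sum was 1.64 times as high in Teff as in Naive, and 2.15 times without Hist1h1c, the gene with the highest CPM. The core histone genes (H2A, H2B, H3 and H4) summed to 232 ± 15 CPM in Naive and 349 ± 38.4 in Anergic. They summed to 347 ± 18.2 in Treg and 467 ± 36.9 in Teff, the latter 2.01 times the Naive level.

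**Figure D1:**
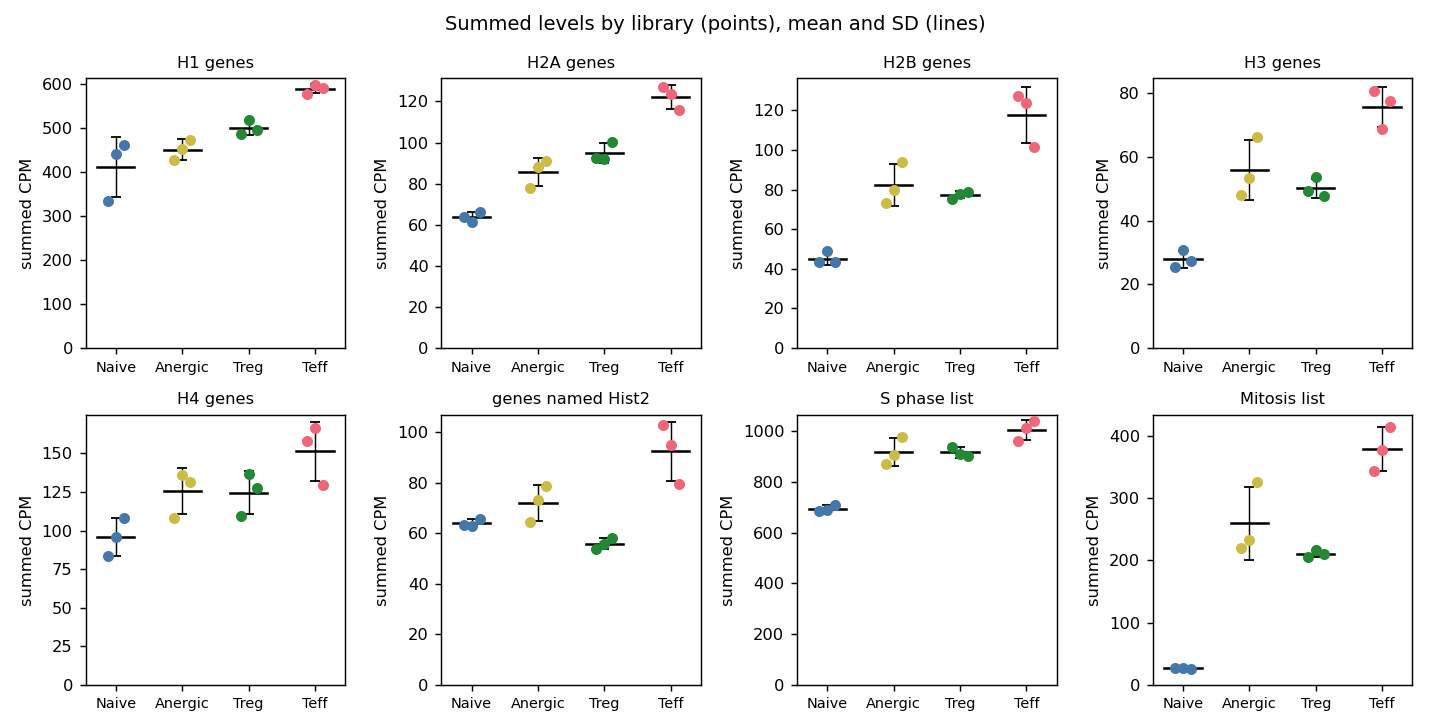
Summed TMM-scaled CPM of the histone genes of each class, of the genes named Hist2, and of the S phase and mitosis gene lists (vertical axes), in the 3 libraries of each subset (points), with mean and SD as lines. Naive libraries are lowest and Teff libraries highest for H2A, H2B and H3, whereas the Hist2 genes are lowest in Treg, at 53.7 to 58.1 CPM.

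In these bulk libraries, fewer cells that carry a histone RNA and less of it per cell cannot be told apart. Among the 54 tested genes the Naive mean was the lowest of the 4 subsets for 48, the Teff mean was the highest for 47, and both held for 43. The heat map of the tested genes shows this order across all classes, with the 3 Naive columns low and the 3 Teff columns high.

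**Figure D2:**
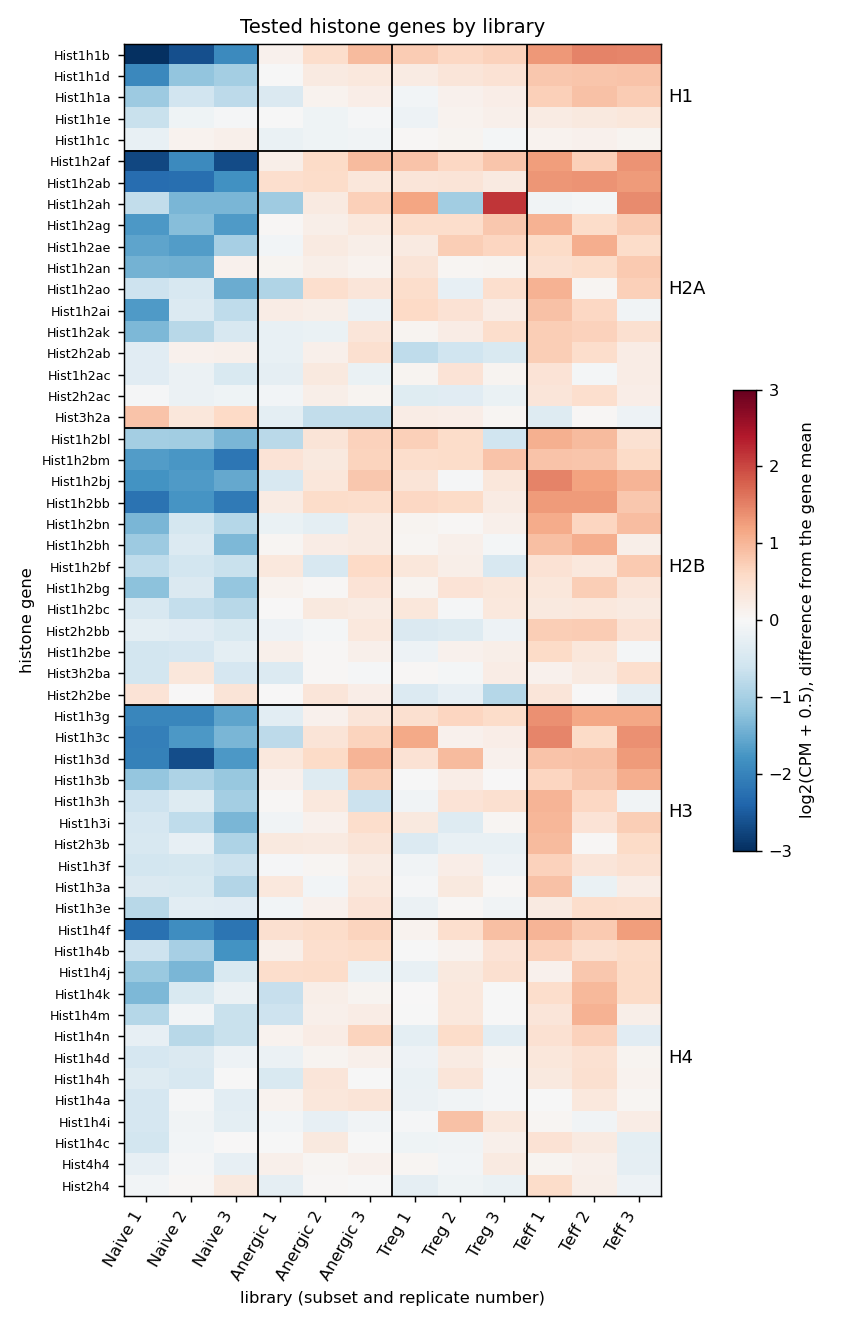
Tested histone genes (rows, grouped by class and ordered by their change from Naive to Teff) in 12 libraries (columns). Colour is log2(CPM + 0.5) as the difference from each gene's mean over the libraries, capped at 3 either way; 43 of 54 genes have their lowest mean in Naive and their highest in Teff.

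Teff cells were compared with Naive cells to see how far histone RNA differs between antigen-experienced and resting cells. In Teff, 44 of the 54 tested histone genes were higher and 1 was lower (edgeR quasi-likelihood test, adjusted p under 0.05). Of all tested genes, 19.2% were higher and 15.7% lower. The median log2 fold change of the 54 tested histone genes was 1.57, beside 0.01 over all genes tested. A gene close to 0 in Naive could pass the filter only through other subsets. Medians and higher calls against Naive are therefore in part set by the filter. By class, higher calls were made for 4 of 5 tested H1 genes, 11 of 13 H2A, 11 of 13 H2B, 10 of 10 H3 and 8 of 13 H4 genes, and medians ran from 0.66 for H4 to 1.90 for H2A.

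The H1 genes differed widely from each other. Hist1h1b (chr13:21779883-21780625) stood at 0.825, 1.73 and 3.18 CPM in the Naive libraries, 14.6, 19.4 and 26.3 in Anergic, 23, 20.9 and 21.8 in Treg, and 33.6, 38.6 and 37.8 in Teff. Every Teff library was thus above every other library, and every Naive library below. It was higher in Teff than in Naive by a log2 fold change of 4.28 ± 0.24 (SE; adjusted p = 9.3e-13). Hist1h1d followed the same order, at 19.4 ± 6.11 CPM in Naive, 57.0 ± 6.74 in Anergic, 62.9 ± 4.15 in Treg and 88.6 ± 1.53 in Teff (log2 fold change Teff against Naive 2.20 ± 0.13, adjusted p = 2.2e-12). Hist1h1a stood at 9.14 ± 1.67, 16.1 ± 3.68, 17.2 ± 1.82 and 28.3 ± 1.66 CPM in these subsets.

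Hist1h1c (chr13:23738808-23740367) had the highest level per length, at 190.3 CPM per kb of GENCODE exon over the 12 libraries. It was ahead of Hist1h1e at 49.8 and Hist2h2bb at 48.5. Levels per kb and their order depend on the annotation, since Hist1h1e spans 1930 exon bases in GENCODE and 782 bases in RefSeq. For Hist1h1d these lengths are 7425 and 776. The Hist1h1c libraries overlapped between Naive (253, 321 and 331 CPM), Treg (305, 315 and 282) and Teff (317, 325 and 314). Its Anergic libraries held 256, 269 and 274. The log2 fold change of Teff against Naive was 0.08 ± 0.08 (adjusted p = 0.46). It reached -0.03 without Naive library 1, which was the lowest. Hist1h1c made up 73.5% ± 2.12 of all H1 CPM in Naive, 59.2% ± 1.21 in Anergic, 60.1% ± 2.87 in Treg and 54.2% ± 0.857 in Teff. Over the same subsets the share of Hist1h1d was 4.62% ± 0.782, 12.6% ± 0.915, 12.6% ± 0.808 and 15% ± 0.296, and that of Hist1h1b rose from 0.444% ± 0.226 in Naive to 6.22% ± 0.358 in Teff. Hist1h1e kept 19.2% to 20.2% of H1 CPM in every subset mean, and 25.7% of its exon overlaps Hist1h2be on the same strand.

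**Figure D3:**
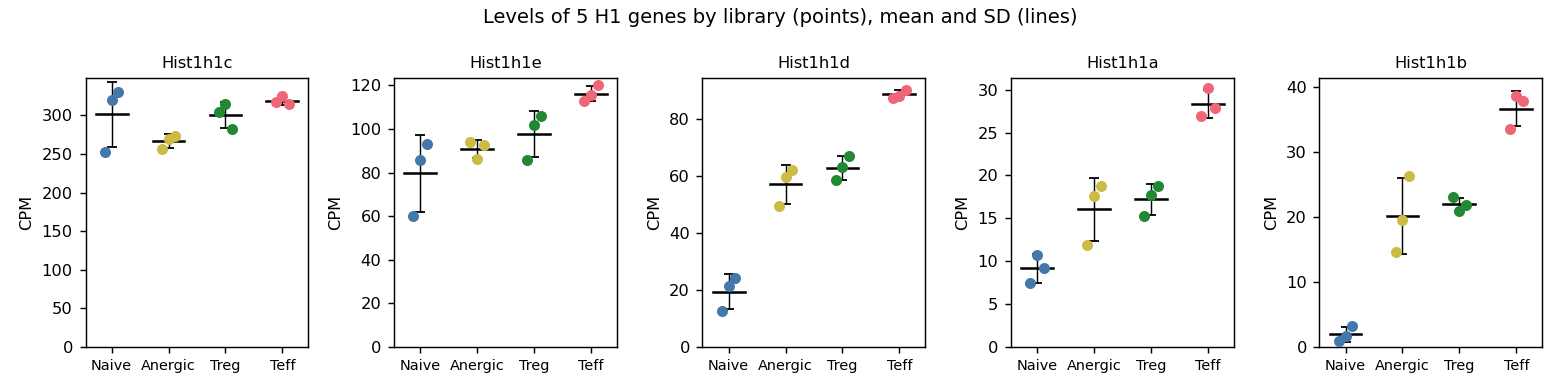
TMM-scaled CPM of 5 H1 genes (vertical axes start at 0 and differ between panels) in the 3 libraries of each subset (points), with mean and SD as lines. Hist1h1c libraries overlap between Naive, Treg and Teff, while the Naive libraries of Hist1h1b lie at 0.825 to 3.18 CPM and its Teff libraries at 33.6 to 38.6.

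Among the H2A genes, Hist1h2ab (chr13:23751126-23751598) had 0.825, 0.866 and 1.36 CPM in Naive, 8.80, 9.02 and 7.70 in Anergic, 7.86, 7.96 and 7.39 in Treg, and 15.9, 16 and 15.3 in Teff. The Naive libraries lay below and the Teff libraries above all others, and the log2 fold change of Teff against Naive was 3.95 ± 0.22 (adjusted p = 8.3e-13). Hist1h2af (chr13:23533906-23534304) went from 0.302 ± 0.274 CPM in Naive to 5.85 ± 1.68 in Anergic, 6.71 ± 0.671 in Treg and 8.7 ± 1.99 in Teff. Its log2 fold change of Teff against Naive was 4.71 ± 0.41 (adjusted p = 1.8e-09). Hist1h2ah varied within subsets, with 24, 1 and 44 counts in the Treg libraries against 2, 0 and 0 in Naive, a ratio of 28.7 with an exact 95% counting interval from 7.66 to 242. It was called higher in Treg (adjusted p = 0.003), but not by limma voom (0.056).

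Among the H2B genes, Hist1h2bb stood at 1.17 CPM in Naive and 14.4 in Teff (log2 fold change 3.59 ± 0.25, adjusted p = 3.5e-11). Hist1h2bm (chr13:21722044-21722567) had 0.413, 0.371 and 0.151 CPM in Naive and 4.74, 4.70 and 3.82 in Teff. Its Anergic (3.40, 3.05 and 4.12) and Treg (3.73, 3.79 and 4.81) libraries overlapped with Teff.

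Several H3 genes were close to 0 in Naive. Hist1h3g (chr13:23535422-23535951) had a single count over the 3 Naive libraries, against 9, 14 and 15 in Anergic, 22, 20 and 20 in Treg, and 39, 31 and 30 in Teff. Scaled for depth, the ratio of Teff to Naive was 89.3, with an exact 95% counting interval from 15.7 to 3562, and intervals of this kind cover counting error only. Hist1h3c had 3 counts over the Naive libraries, and its ratio was 31.0 (10.3 to 153). Hist1h3d (chr13:23575763-23577011) stood at 0.243 ± 0.229 CPM in Naive and 5.88 ± 1.08 in Teff (log2 fold change 4.59 ± 0.50, adjusted p = 8.5e-08). Hist1h3e, the highest H3 gene per kb (25.4 CPM per kb), changed less, from 14.6 ± 2.84 to 27.9 ± 2.74 CPM (0.94 ± 0.14, adjusted p = 1.2e-05).

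The H4 genes spread from no call to a steep rise. Hist1h4f (chr13:23551258-23551648) had 0.275, 0.495 and 0.303 CPM in Naive and 6.94, 5.81 and 8.14 in Teff, a log2 fold change of 4.2 ± 0.38 (adjusted p = 4.2e-09). Hist1h4d, the highest H4 gene per kb (39.9 CPM per kb), went from 34.8 ± 4.69 to 54.9 ± 6.86 CPM (0.66 ± 0.12, adjusted p = 8.5e-05). The 5 H4 genes without a call were Hist1h4a, Hist1h4i, Hist1h4c, Hist2h4 and Hist4h4, with log2 fold changes of 0.13 to 0.46.

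**Figure D4:**
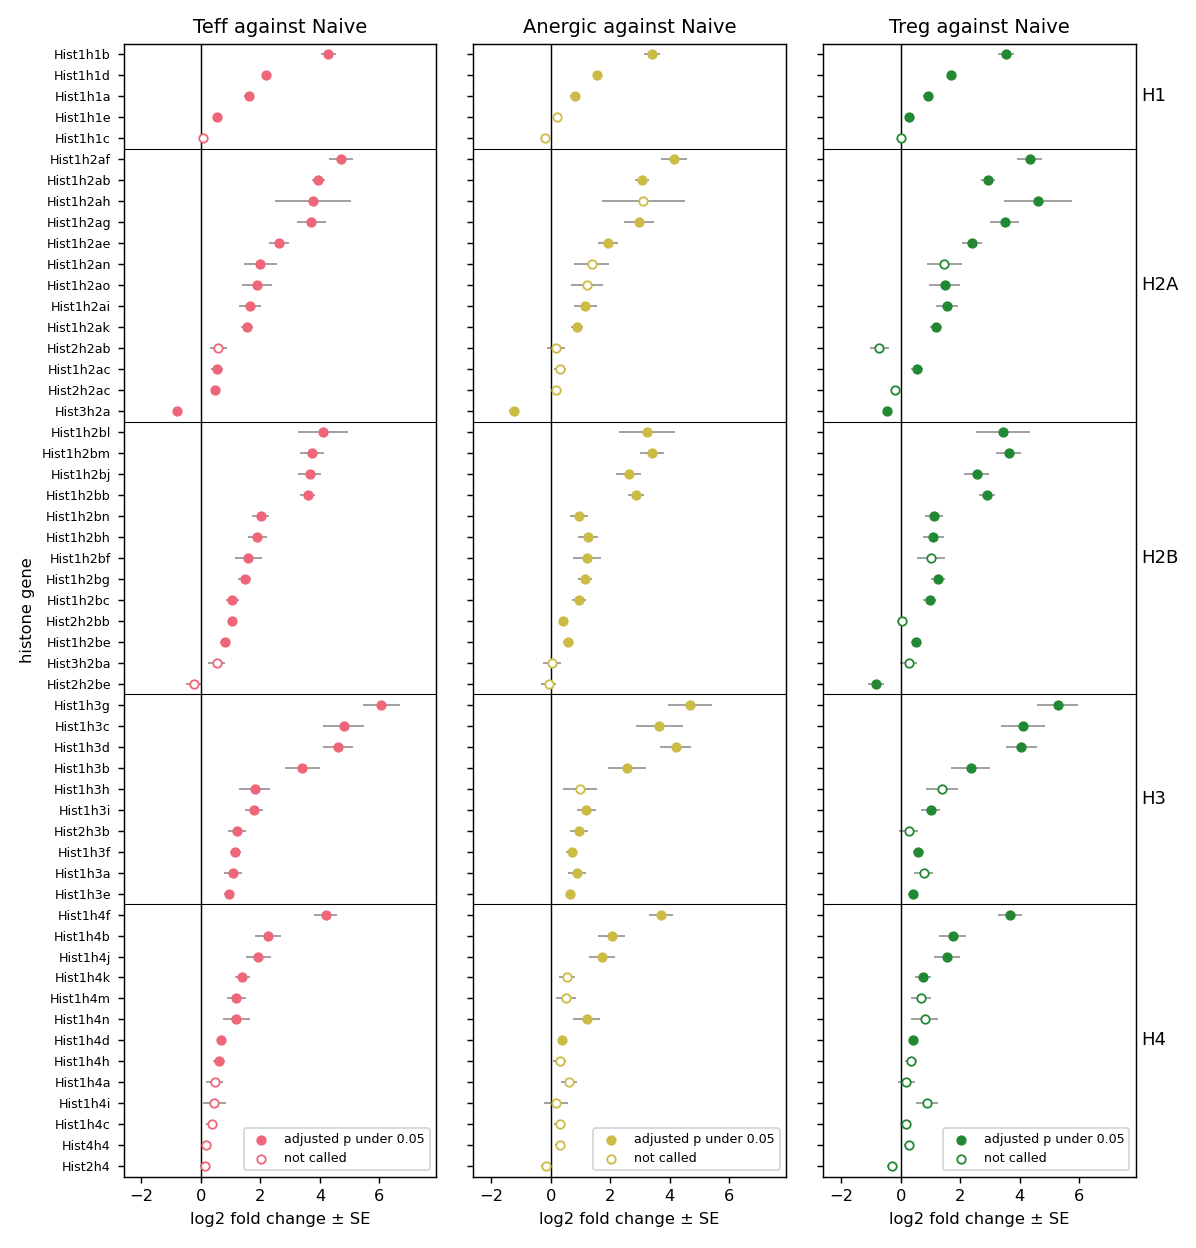
Log2 fold change ± SE (horizontal axes) of the 54 tested histone genes in Teff, Anergic and Treg, each against Naive; filled points have an adjusted p under 0.05. Filled points to the right of 0 number 44, 34 and 34, and Hist3h2a lies to the left of 0 in all 3 panels.

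Anergic and Treg cells were each compared with the same Naive libraries, so these comparisons share their controls. In Anergic cells 34 of the 54 tested histone genes were higher and 1 lower (25% and 21.3% of all tested genes). The median log2 fold change was 0.97 over the tested histone genes and 0.01 over all genes. In Treg cells 34 were higher and 2 lower (19% and 13.9% of all tested genes), with medians of 1.01 and 0.00. Hist1h1b rose by a log2 fold change of 3.41 ± 0.26 in Anergic (adjusted p = 1.3e-10) and 3.54 ± 0.26 in Treg (adjusted p = 7.6e-11). Hist1h3d rose by 4.2 ± 0.52 and 4.06 ± 0.53, Hist1h2af by 4.13 ± 0.44 and 4.34 ± 0.42, Hist1h4f by 3.69 ± 0.40 and 3.66 ± 0.40, Hist1h2bm by 3.40 ± 0.42 and 3.63 ± 0.41, and Hist1h2ab by 3.07 ± 0.24 and 2.93 ± 0.24. Hist1h1e stood at 79.6 ± 17.5 CPM in Naive and was called in Treg (97.8 ± 10.6 CPM, 0.30 ± 0.11, adjusted p = 0.036) but not without Naive library 1, Treg library 2 or Treg library 3 (adjusted p = 0.31, 0.11 and 0.17). In Anergic it held 90.9 ± 4.24 CPM (adjusted p = 0.15).

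Anergic and Treg cells were next compared with Teff, which they share as controls. In Anergic cells 16 of the 54 tested histone genes were lower and 0 higher by edgeR (12.7% and 13.9% of all tested genes). Also 0 were higher by DESeq2, by limma voom and at an unadjusted p under 0.05. The median log2 fold change was -0.47 over the tested histone genes. In Treg cells 17 were lower and 0 higher (14.1% and 15% of all tested genes). By DESeq2 and limma voom 0 were again higher, and 1 was at an unadjusted p under 0.05. The median in Treg was -0.46. All of these tests used the same filtered genes. A gene with few counts outside Teff could pass the filter only through Teff. Medians and calls against Teff can therefore also be set in part by the filter. All 5 tested H1 genes were lower in Anergic, by log2 fold changes from -0.87 (Hist1h1b) to -0.26 (Hist1h1c, adjusted p = 0.015), of which Hist1h1e (adjusted p = 0.013) was lost without Anergic library 2 (0.059). In Treg 3 of the 5 were lower: Hist1h1b, Hist1h1a and Hist1h1d. Hist1h1a, Hist1h1b, Hist1h1d, Hist1h2ab, Hist1h2bb, Hist1h2bj and Hist1h2bn were each called lower than Teff in Anergic and in Treg and called higher than Naive in every other subset, in comparisons that share their libraries. Each of them stood lowest in Naive and highest in Teff. Hist1h2bj (chr13:22043214-22043676) had 0.55, 0.618 and 0.757 CPM in Naive, 2.11, 4.10 and 5.84 in Anergic, 4.23, 3.03 and 4.11 in Treg, and 9.72, 7.91 and 6.87 in Teff. It was lower than Teff by -1.04 ± 0.28 in Anergic (adjusted p = 0.0062) and -1.10 ± 0.27 in Treg (adjusted p = 0.0033). Hist1h3g was lower in Anergic by -1.38 ± 0.34 (adjusted p = 0.0031), and its difference in Treg, -0.78 ± 0.31, did not pass (adjusted p = 0.066). Hist1h3c was called in Anergic (-1.16 ± 0.42, adjusted p = 0.047), but its libraries overlapped and the call was lost without any of 6 single libraries (Naive 2, Anergic 1 or 2, Treg 3, Teff 1 or 3; adjusted p up to 0.21).

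Anergic and Treg cells differed little in the Hist1 genes and more in the Hist2 genes of chromosome 3. Between them 4 of the 54 tested histone genes were higher in Anergic and 1 lower, both below the shares of all tested genes (15.6% and 15.3%). The median log2 fold change was -0.05. All 4 higher genes were among the 6 tested Hist2 genes, while 0 of the 45 tested Hist1 genes were called by edgeR, DESeq2 or limma voom, with 0 higher and 1 lower at an unadjusted p under 0.05. The difference between the clusters was not tested. Hist2h2ac (chr3:96220361-96220880), an H2A gene, had 21.6, 25.7 and 24 CPM in Anergic and 17.6, 17.8 and 19.6 in Treg (0.37 ± 0.11, adjusted p = 0.011). Hist2h2ab stood at 3.54 ± 0.967 and 1.87 ± 0.25 CPM (0.91 ± 0.31, adjusted p = 0.027), and Hist2h2be, an H2B gene, at 5.17 ± 0.699 and 3.04 ± 0.736 (0.76 ± 0.26, adjusted p = 0.028). Hist2h2bb (chr3:96269752-96270132) stood at 18.2 ± 3.47 and 14 ± 1.47 (0.37 ± 0.14, adjusted p = 0.049). The calls were marginal. For Hist2h2bb, Anergic library 1 (15.73 CPM) and Treg library 3 (15.72 CPM) were nearly equal, each with 134 counts. The count of higher genes fell to 1 without Anergic library 2, Anergic library 3 or Treg library 1 and to 2 without Treg library 2. With scaling by total counts, which moved the median of all genes by -0.13, it was 0 higher and 2 lower.

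As a sum, the Hist2 genes also stood low in Treg against the other subsets. Their sum was 63.4, 63.1 and 65.7 CPM in the Naive libraries, 53.7, 55.6 and 58.1 in Treg, 64.4, 73.3 and 78.6 in Anergic, and 103, 95.1 and 79.5 in Teff. Against Teff, 5 of the 6 tested Hist2 genes were lower in Treg, led by Hist2h2ab (-1.31 ± 0.30, adjusted p = 0.0014), Hist2h2bb (-1.0 ± 0.13, adjusted p = 2.5e-06) and the H3 gene Hist2h3b (-0.95 ± 0.27, adjusted p = 0.011; 0.096 without Teff library 1). Against Naive, 0 of the 6 were higher in Treg by edgeR, DESeq2 or limma voom or at an unadjusted p under 0.05, beside 34 of the 45 tested Hist1 genes. The 6 Hist2 genes ran from -0.84 to 0.27 in this comparison, with a median of -0.25, so not all stood below Naive. Hist2h2bb was near level (0.04). Hist2h3b had 2.48, 2.97 and 1.67 CPM in Naive and 2.62, 3.03 and 3.05 in Treg. Hist2h2be was lower than Naive in Treg (-0.84 ± 0.26, adjusted p = 0.016), a call lost without Naive library 1, Naive library 3 or Treg library 3 (adjusted p = 0.062, 0.052 and 0.088). For Hist2h2bb and Hist2h3b the annotated exon lies wholly within exons of Gm20628 on the other strand, which had 4 to 14 counts per library. Hist2h2bb also shares 59.3% of its exon with Gm42743 on the same strand (25 to 100 counts), and Hist2h2ab 68.2% with Gm15444 on the other strand (4 to 14 counts). Whether the counting used strand is not given in the sources used here.

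Hist3h2a, an H2A gene on chromosome 11 (chr11:58954685-58956830), ran the other way. It had 23.5, 16.2 and 19.7 CPM in Naive, 10.3, 7.50 and 7.44 in Anergic, 15.1, 14.8 and 13.4 in Treg, and 9.6, 13.2 and 11.4 in Teff, so every Naive library was above every other. It was lower than Naive by -1.22 ± 0.17 in Anergic (adjusted p = 1.8e-06) and -0.79 ± 0.16 in Teff (adjusted p = 0.0004). In Treg the difference was -0.45 ± 0.16 (adjusted p = 0.028), which was lost without Naive library 1, Naive library 3, Treg library 2 or Treg library 3 (adjusted p = 0.056 to 0.19). It was also lower in Anergic than in Treg (-0.77 ± 0.17, adjusted p = 0.00099). Trim17, on the same strand, overlaps 33% of its exon and had 0 to 4 counts per library.

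H2A and H2B genes often sit head to head. In 14 pairs the start sites of genes on opposite strands lay less than 1000 bases apart, and 13 of these paired an H2A with an H2B gene. Both partners were tested in 7 pairs, which include Hist1h2bh with the H3 gene Hist1h3f. In 6 of the 7 both were higher in Teff than in Naive, where 44 of the 54 tested histone genes were higher. Whether partners move together more than other histone genes do was not tested. Hist1h2ag and Hist1h2bj, whose starts are 269 bases apart, had log2 fold changes of 3.71 and 3.65, and Hist1h2ak and Hist1h2bn, 295 bases apart, 1.56 and 2.00. The partners were not always alike. Hist1h2bl had 2 counts in Naive and a ratio of 20.1 (5.25 to 171), while its partner Hist1h2ai changed by 1.65, and in the pair of Hist2h2ac (0.49 ± 0.11, adjusted p = 0.001) and Hist2h2be (-0.24 ± 0.25, adjusted p = 0.51) only the former was called.

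The annotated transcripts end at different places relative to the stem-loop, and the size of the change was set beside this. In 19 genes the transcript ended at most 50 bases past the stem-loop, in 26 it extended further, in 15 it stopped at the coding end, and in 9 no stem-loop was found. All 14 tested genes of the first kind were higher in Teff than in Naive, with a median log2 fold change of 2.91 and a range from 0.61 to 6.06, the upper end being Hist1h3g with its single Naive count. Of the 23 tested genes with longer transcripts 15 were higher, with a median of 0.66 and a range from -0.79 to 4.80. The medians were 1.81 for the 13 tested genes that stopped at the coding end and 1.14 for the 4 without a stem-loop. In sum, the genes that end near the stem-loop rose from 21.9 ± 1.11 CPM in Naive to 94.0 ± 9.05 in Teff, 4.30 times, and those with longer transcripts from 564 ± 75.7 to 776 ± 21.6, 1.38 times. With a limit of 100 bases in place of 50, chosen after seeing the data, these ratios were 3.00 and 1.37. A large part of the sum for longer transcripts was Hist1h1c, at 253 to 331 CPM in the Naive libraries and 314 to 325 in Teff. The ratio for longer transcripts therefore rests heavily on this gene. Hist1h1c and Hist3h2a are of the longer kind, with 840 annotated bases past the stem-loop for Hist1h1c, and so are Hist1h3d and Hist1h3c, which rose steeply. Counts per gene do not show where in a transcript the reads fell, and no test of the difference between these groups was made.

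**Figure D5:**
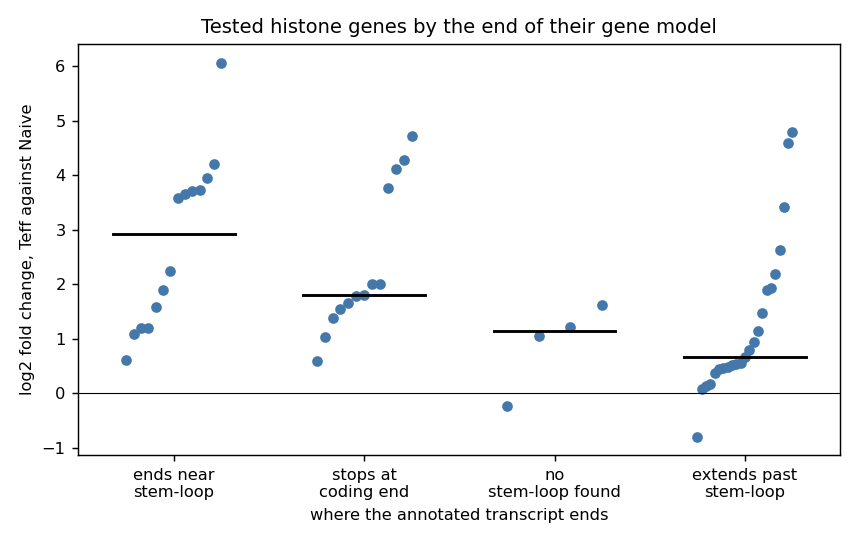
Log2 fold change of Teff against Naive (vertical axis) for each tested histone gene (points), grouped by where its annotated transcript ends, with the median as a line. The medians are 2.91, 1.81, 1.14 and 0.66 from left to right, and the ranges overlap. Only genes that passed the filter are drawn, so the medians are in part set by it.

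Histone genes of a class are near copies of each other, so reads can be hard to assign. A median of 55% of a gene's 50-base stretches also occurred in another annotated gene's transcript, and 36 of the 69 genes shared at least 50%. The other gene could be of any kind and on either strand, so genes that overlap at the same place also count. Hist2h2bb and Hist2h3b, for example, shared 100% with the overlapping Gm20628. These shares can therefore overstate how far genes of a class are copies. The sharing had a median of 90.9% for the 6 genes at 0 counts and 49.4% for the 54 tested genes. Of the 6, Hist1h2aa (23.8%) and Hist1h2ba (38.2%) lay below the median of the tested genes, and the others lay at 88.7% or above. How shared reads were counted is not stated in the labels, which makes the split between near copies uncertain. Of the 33 genes that shared less, 29 were tested, and 20 of these 29 were higher in Teff than in Naive (median log2 fold change 1.06). Of the other 36, 25 were tested, and 24 of these 25 were higher (median 1.81). The difference between these groups was not tested. Hist1h1b and Hist1h1a shared no such stretch with another gene.

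Genes for DNA replication and mitosis were set beside the histone genes. Of the 40 S phase genes 24 were higher in Teff than in Naive, 20 in Anergic and 22 in Treg. The shares of all tested genes were 19.2%, 25% and 19%. The S phase medians were 0.75, 0.55 and 0.52. Lower than Naive were 3 in Anergic, namely Cdt1, Pola2 and Pcna (the last lost without Naive library 1, Anergic library 1 or Anergic library 2, adjusted p up to 0.22), and 1 in Treg, Cdt1, which was lost without Naive library 2 or 3 or Treg library 2 or 3 (adjusted p up to 0.12). In Teff 0 were lower by edgeR, DESeq2 or limma voom or at an unadjusted p under 0.05. Of all tested genes 15.7% were lower than Naive in Teff, 21.3% in Anergic and 13.9% in Treg. Uhrf1, which keeps DNA methylation through replication, rose by 3.20 ± 0.20 in Teff, the replication checkpoint gene Clspn by 3.84 ± 0.31, and the helicase subunit Mcm6 by 0.91 ± 0.07. All 19 tested mitosis genes were higher than Naive in Teff, Anergic and Treg, with medians of 3.97, 2.95 and 2.94. Mki67, the proliferation marker, stood at 3.43 CPM in Naive, 102 in Anergic, 67.1 in Treg and 144 in Teff.

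Against Teff, 12.7% of all tested genes were lower and 13.9% higher in Anergic, and 14.1% and 15% in Treg. Of the 40 S phase genes 13 were lower and 1 (Mcm6) higher in Anergic. In Treg 6 were lower, close to the share of all tested genes, and 2 (Mcm7 and Gins4) were higher. Both of these calls were lost by DESeq2. That of Mcm7 was also lost without Treg library 1 or 3 or Teff library 1 or 2, and that of Gins4 without Naive library 3, Treg library 1 or 2 or any 1 of the Teff libraries. Of the 19 mitosis genes 13 were lower in each, 8 in Anergic without Teff library 3. The summed level of the S phase list was 695 ± 12.4 CPM in Naive, 918 ± 54.7 in Anergic, 916 ± 20 in Treg and 1005 ± 40.1 in Teff. The sum of the core histone genes divided by that of the S phase list was 0.334 ± 0.0175 in Naive, 0.38 ± 0.0231 in Anergic, 0.379 ± 0.0275 in Treg and 0.466 ± 0.0531 in Teff. Divided by the mitosis list, which summed to 26.3 ± 1.41 CPM in Naive and 378 ± 35.2 in Teff, it was 8.87 ± 1.03 in Naive and 1.25 ± 0.207 in Teff.

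Genes for factors that make and place histones were also counted. Of 19 tested genes for histone transcription and mRNA processing 2 were higher in Teff than in Naive and 2 lower, with a median of -0.03, where 19.2% of all tested genes were higher and 15.7% lower. Slbp, the stem-loop binding protein, stood at 39.0 CPM in Naive, 51.0 in Anergic, 47.0 in Treg and 64.1 in Teff, a log2 fold change of 0.71 ± 0.08 in Teff (adjusted p = 2e-07). It was also higher than Naive in Anergic (0.38 ± 0.08, adjusted p = 0.00055) and in Treg (0.27 ± 0.08, adjusted p = 0.016, lost without Naive library 3 or Treg library 1 at 0.11 and 0.13). The cap-binding gene Ncbp2 rose in Teff (0.46, adjusted p = 0.013; 0.078 without Naive library 2), and the uridylyltransferase gene Tut4 (-0.27, adjusted p = 0.0037) and Ncbp1 (-0.23, adjusted p = 0.01; 0.052 to 0.054 without Naive library 2 or 3 or Teff library 3) fell. Of 21 histone chaperone genes 4 were higher and 2 lower in Teff, with a median of 0.06, and the share that was higher was close to that of all tested genes. Chaf1a, of the complex that places H3 and H4 on new DNA, rose by 2.04 ± 0.18, and Asf1b, which carries H3 and H4, by 1.28. Nasp, another carrier of H3 and H4, fell by 0.35 (adjusted p = 0.0011) and the importin Ipo4 by 0.66 (adjusted p = 0.0069).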

How the data were processed

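RNA from 12 libraries (4 sorted subsets, 3 each) was sequenced from total RNA with a stranded kit, per the labels' protocols. Raw counts of reads per gene were deposited by the authors in 1 table of 54532 entries; HISAT2, featureCounts and a GRCm38 (mm10) genome are named in the submitters' processing notes. Nothing used here states the gene annotation, the treatment of multi-mapping reads or the strand setting. All 12 count columns were mapped to samples by name, leaving 0 unmapped.

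Counts were tested with edgeR 4.0.16 (filterByExpr, TMM, quasi-likelihood F test, 1 fit over all 12 libraries, R 4.3.3) in 6 comparisons, with Benjamini-Hochberg adjustment over 13393 genes at 0.05. A standard error is the absolute log2 fold change divided by the root of F. Alternatives were DESeq2 1.42.0, limma 3.58.1 (voom), other scalings, filters and library sizes, a replicate block and leaving out each library. The test was tried on simulated counts first. Ratios with 1 to 3 Naive counts carry exact intervals at 95% that cover counting error only. Library totals of 6909035 to 9527897 limit genes with few counts.

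Annotation came from GENCODE M21, stem-loops from its transcripts and promoters from RefSeq (GRCm38.p6). Named histone genes were, per comparison, up to 6 called genes at each end of the log2 fold changes averaging 2 CPM or more in whichever subset was higher, the 8 highest by mean CPM, the 3 highest per kb, the genes at 0 and divergent partners of these. Histone genes outside that rule were named after their values were seen. In other lists, up to 3 risen and 3 fallen genes with the smallest adjusted p, the sort markers, Mki67 and Slbp were named. The histone genes and all lists were chosen with earlier results of these data known, and the AAACACA motif, the 50-base stretches and the split by transcript end were added after the data were seen.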

Additional observations from a re-analysis of the deposited data

How the results depend on the processing

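Most values kept their direction and side of the threshold: 227 histone gene counts (25 moved), 1587 values of single histone genes (63 weaker, 27 stronger, 12 turned in sign) and 1663 of single list genes (57 weaker, 1 turned). The cause of each change was not tested unless given. With a filter of 5 CPM, which tests fewer genes, higher calls against Naive numbered 25 in Teff, 20 in Anergic and 22 in Treg. Between Anergic and Treg, total-count scaling gave 0 higher and 2 lower, and 2 were lower with no filter, with only the compared subsets and with the replicate block; leaving out 1 library gave 1 to 4 higher and 1 to 2 lower. Lower than Naive in Anergic were 2 under total-count scaling, protein-coding library sizes, no filter and the replicate block (1 to 2 without 1 library), and in Treg 1 under total-count scaling (0 to 2 without 1 library). Mitosis genes lower in Anergic than Teff ranged from 8 to 13 without 1 library. S phase genes lower in Treg than Naive numbered 0 under total-count scaling and 2 with protein-coding sizes, only the compared subsets or the replicate block (0 to 2 without 1 library); those higher in Treg than Teff numbered 0 with DESeq2 size factors, no filter or the DESeq2 test and 1 by limma voom (0 to 2 without 1 library). The summed histone ratio under total-count scaling was 1.70 for Teff over Naive, 1.4 for Treg over Naive and 0.86 for Anergic over Treg. Signs turned for differences near 0: Hist1h1c in Treg against Naive was 0.0809 under total-count scaling, 0.0047 by limma voom, 0.0016 with the replicate block and -0.116 to 0.0635 without 1 library; Hist1h1c in Teff against Naive ranged from -0.0298 to 0.156, Hist1h1b in Anergic against Treg from -0.365 to 0.0548, Hist1h4d in the same comparison from -0.127 to 0.0841, and Hist2h2bb in Treg against Naive from -0.0482 to 0.0942 without 1 library. Slbp, Anergic against Treg, was -0.0096 under total-count scaling. Replicate numbers did not meet the rule for pairing (every same-numbered pair over 0.1): deviations of same-numbered libraries correlated from -0.048 to 0.18, with 4 of 18 pairs over 0.1. However, 8 of 12 libraries correlated best with their own number in every other subset, a hint of pairing from the data and not from the design.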

Other observations

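Some histone variant genes outside the clusters had their highest level in Anergic or Treg. H1f0, a linker histone known from cells that have stopped dividing, stood at 10.6 ± 0.883 CPM in Naive, 70.2 ± 8.98 in Anergic, 25 ± 2.82 in Treg and 45.6 ± 2.93 in Teff (n = 3 each). It was higher in Anergic than in Treg by a log2 fold change of 1.48 (edgeR adjusted p = 2.8e-11) and than in Teff by 0.62. H2afz, which encodes H2A.Z, was highest in Treg at 80.2 ± 4.36 CPM, against 31.0 ± 0.883 in Naive, 52.3 ± 2.09 in Anergic and 38.9 ± 3.85 in Teff, and was higher in Treg than in Teff by 1.04. H2afx, which encodes H2A.X, was instead lowest in Naive at 23.1 ± 4.58 CPM and highest in Teff at 33.4 ± 3.21 (log2 fold change 0.53, adjusted p = 0.0016). The 11 variant genes of this list summed to 818 ± 18.8 CPM in Naive and 828 ± 7.8 in Teff.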
